A study of Homo sapiens with 35 samples.

Results

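The NF-κB subunits are encoded by 5 genes, *NFKB1*, *NFKB2*, *REL*, *RELA* and *RELB*, and all 5 were found by symbol among the 62649 gene identifiers of the RNA-seq count table. They were chosen by family and not by any measured value, though with earlier results of these data known, and all 5 passed the filter on low counts. Their transcript levels were followed over 12 RNA-seq libraries, and peaks at each gene were taken from 20 ChIP-seq libraries. The cells were U-87 MG, an established human glioblastoma line in culture. RNA-seq covered 4 groups of 3 replicates, which were untreated control cells, control cells given TWEAK at 10 ng/ml, *NFKB2* KD cells given TWEAK and *ETS1* KD cells given TWEAK. ChIP-seq covered 10 groups of 2 replicates. The p52 antibody was used on untreated and TWEAK-treated control cells and on TWEAK-treated *ETS1* KD cells made with guide 1 or guide 2, the ETS1 antibody on untreated and TWEAK-treated control cells, and the RNA Pol II antibody on the same 4 conditions as RNA-seq. All cells had been starved of serum before treatment, which lasted 48 h, and the KD cells carried a lentiviral CRISPR-Cas9 construct, so that a KD culture can hold cells with different edits. The labels do not say which guide was used in the RNA-seq and RNA Pol II libraries, and no KD group without TWEAK was analysed here. The methods call the RNA-seq replicates biological, without saying how the cultures were kept apart, and the p-values measure the spread between these libraries. For the ChIP-seq replicates neither the labels nor the methods say so.

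The 5 subunits share a Rel homology domain and bind DNA as dimers. *RELA*, *RELB* and *REL* encode the subunits that carry a transactivation domain, p65, RelB and c-Rel. *NFKB1* and *NFKB2* encode the precursors p105 and p100, which hold partner subunits in the cytoplasm and are processed to p50 and p52. In the non-canonical pathway a ligand such as TWEAK stabilises the kinase NIK, p100 is cut to p52, and p52 enters the nucleus mostly with RelB. Transcript counts and peaks of p52 do not measure the processing step itself.

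Total counts per RNA-seq library lay between 28384201 and 40192606. Some libraries stood apart from the others of their group over all genes tested, by a chi-square per degree of freedom between pairs of libraries. Untreated replicate 3 was at 78.8 and 70.7 from the other two, which were at 6.86 from each other. TWEAK-treated control replicate 1 was at 50.6 and 83.9, against 15.02, and *NFKB2* KD replicate 2 at 88.8 and 75.4, against 35.3. *ETS1* KD replicate 2 was at 38.2 and 46.2, against 17.4. Without any one of these libraries *NFKB2* and *RELB* were still called with TWEAK. Over all genes the 520 calls with TWEAK became 405, 371, 972 and 413 in that order. The genes fixed as markers of a mesenchymal glioma line had a summed level between 11589 and 20353 CPM (library-scaled read counts) over the 12 libraries, and each of the 5 was detected in all of them, from *VIM* at 9088 CPM or more to *CD274* at 5.52 CPM or more. It was lower in untreated control (11589 to 13518 CPM) and *NFKB2* KD libraries (13983 to 16576 CPM) than in TWEAK-treated control (18259 to 19775 CPM) and *ETS1* KD libraries (18002 to 20353 CPM), and its part in the members' results was not tested. The 4 glial markers summed to 2.16 CPM at most, with *SOX2* and *S100B* at 0 in some libraries and *GFAP* at 0.365 CPM at most. The remaining glial marker, *OLIG2*, was detected in every library (0.528 to 1.73 CPM, 18 to 61 counts) and alone among them passed the filter on low counts. The blood markers summed to 0.574 CPM at most, with *PTPRC* at 0 to 3 counts in a library. The 2 endothelial markers reached 5.28 CPM. The targeted gene *ETS1*, an ETS-family transcription factor, was at 28.2, 33.0 and 37.8 CPM in the *ETS1* KD libraries, at 71.9, 73.1 and 87.6 CPM in TWEAK-treated control libraries and at 42.0, 41.3 and 45.1 CPM without TWEAK. In the *NFKB2* KD libraries *ETS1* was at 67.0, 48.8 and 65.4 CPM. The *ETS1* KD libraries were below all other groups, with a log2 fold change of -1.23 ± 0.15 (SE) against TWEAK-treated control cells (edgeR's quasi-likelihood test with Benjamini-Hochberg adjustment over 16879 genes, adjusted p = 0.00112). For *NFKB2* KD against TWEAK-treated control cells the log2 fold change of *ETS1* was -0.36 ± 0.15 (SE), which was not called (edgeR unadjusted p = 0.0296).

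*NFKB2*, whose product p100 is the precursor of p52, changed most among the 5 genes (ENSG00000077150, hg38 chr10:102394110-102402524, plus strand). It was at 49.6, 54.5 and 66.6 CPM in the untreated libraries, at 235, 289 and 346 CPM in TWEAK-treated control libraries, at 75.6, 92.6 and 105 CPM in *NFKB2* KD libraries and at 209, 234 and 273 CPM in *ETS1* KD libraries. Every TWEAK-treated library lay above every untreated library, the *NFKB2* KD libraries lay between the untreated and the other TWEAK-treated libraries, and the *ETS1* KD range overlapped that of TWEAK-treated control cells. The means were 56.9 ± 8.8 CPM (SD, n = 3) without TWEAK, 290.0 ± 55.4 with TWEAK, 91.0 ± 14.7 with *NFKB2* KD and 239 ± 32 with *ETS1* KD. With TWEAK *NFKB2* rose 5.10-fold in control cells (95% interval 3.89 to 6.68; log2 fold change 2.35 ± 0.18 (SE), edgeR adjusted p = 2.92e-05) and had the 6th smallest p of the genes tested. In TWEAK-treated cells, *NFKB2* KD lowered the transcript of its own target 3.19-fold (log2 fold change -1.67 ± 0.18 (SE), edgeR adjusted p = 0.00339), which checks the labels of these libraries. As the RNA came from whole cultures, fewer cells with the transcript and less transcript per cell cannot be told apart.

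*RELB*, the main partner of p52, rose as well (ENSG00000104856, hg38 chr19:45001461-45038192, plus strand). Its levels were 18.6, 22.4 and 24.9 CPM in untreated libraries and 49.3, 56.7 and 62.8 CPM in TWEAK-treated control libraries. They were 29.3, 38.6 and 36.9 CPM with *NFKB2* KD and 37.4, 45.4 and 43.6 CPM with *ETS1* KD. The untreated libraries were the lowest and the TWEAK-treated control libraries the highest, without overlap with any other group, while the ranges of the 2 KD groups overlapped each other. The rise with TWEAK in control cells was 2.56-fold (95% interval 2.04 to 3.22; log2 fold change 1.36 ± 0.15 (SE), edgeR adjusted p = 0.000437). With *NFKB2* KD the log2 fold change against TWEAK-treated control cells was -0.69 ± 0.15 (SE). Its unadjusted p of 0.000522 was the 26th smallest in the edgeR fit, and it did not pass the threshold after adjustment over all genes (adjusted p = 0.319). It passed in DESeq2 (adjusted p = 0.0274, log2 fold change -0.68) and without the filter on low counts in edgeR (adjusted p = 0.0405), and over all 19 alternatives the adjusted p ran from 0.0274 to 1.

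**Figure D1:**
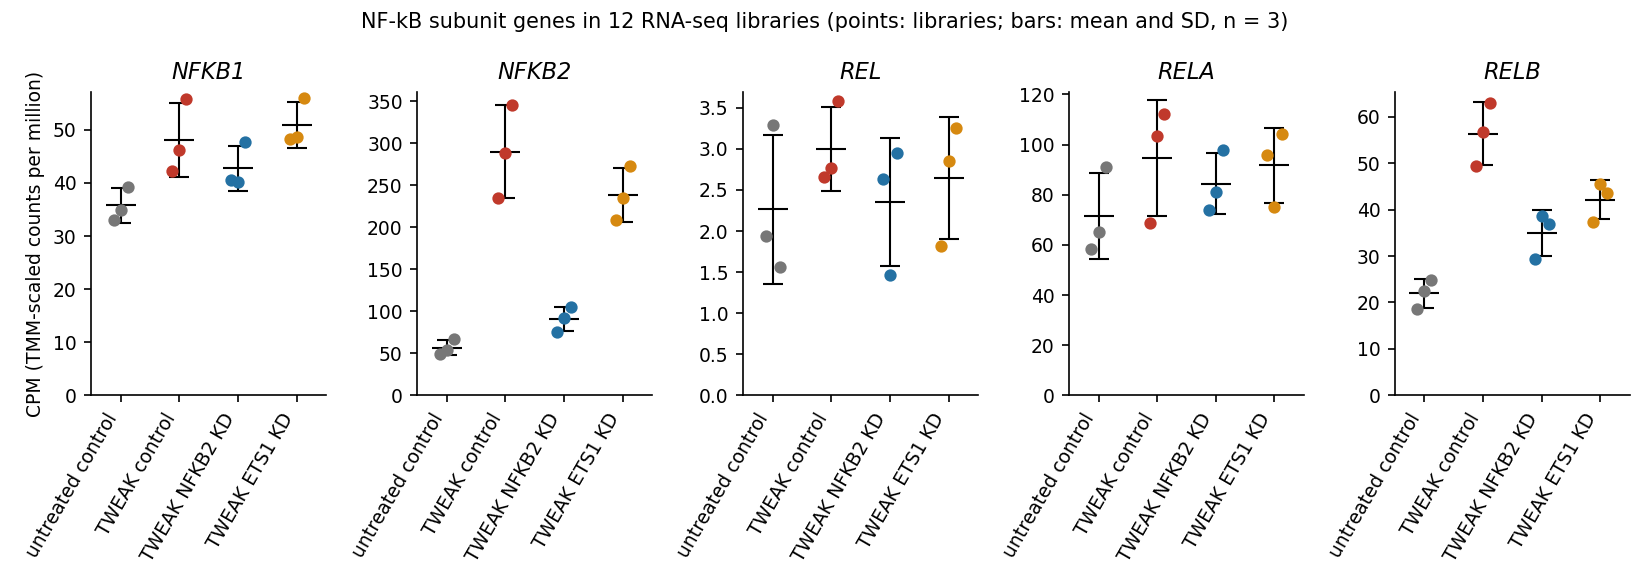
CPM of the 5 genes in each of the 12 RNA-seq libraries, with the mean and SD of each group of 3 (each panel has its own vertical axis from 0). The TWEAK-treated control libraries of *NFKB2* (235 to 346 CPM) and *RELB* (49.3 to 62.8 CPM) lie above the untreated libraries, and *REL* stays under 3.6 CPM in every library.

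*NFKB1*, which encodes p105 and p50, moved less (ENSG00000109320, hg38 chr4:102501330-102617302, plus strand). It was at 33.0, 35.0 and 39.3 CPM without TWEAK, at 42.3, 46.2 and 55.8 CPM in TWEAK-treated control libraries, at 40.5, 40.2 and 47.7 CPM with *NFKB2* KD and at 48.2, 48.6 and 55.9 CPM with *ETS1* KD. All 9 TWEAK-treated libraries lay above the 3 untreated ones, and the TWEAK-treated control range overlapped that of both KDs, which did not overlap each other. In control cells the log2 fold change with TWEAK was 0.43 ± 0.13 (SE), which did not pass the threshold (edgeR adjusted p = 0.116). It passed under a correction for GC content and length (adjusted p = 0.00936 in edgeR).

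*RELA*, which encodes p65, the transactivating subunit of the canonical pathway, was called in none of the 6 comparisons in the edgeR fit (ENSG00000173039, hg38 chr11:65653599-65663090, minus strand). It was at 58.6, 65.2 and 90.9 CPM without TWEAK and at 68.6, 103 and 112 CPM in TWEAK-treated control libraries. It was at 74.0, 81.2 and 97.8 CPM with *NFKB2* KD and at 96.0, 75.3 and 104 CPM with *ETS1* KD. The ranges of all 4 groups overlapped. The highest untreated value and the lowest TWEAK-treated control value came from the libraries that stood apart, replicates 3 and 1. The log2 fold change with TWEAK in control cells was 0.41, with a 95% interval from -0.05 to 0.86 (edgeR adjusted p = 0.424), so a rise of the size seen for *RELB* lies outside the interval. It was 0.62 without untreated replicate 3 and 0.59 without TWEAK-treated control replicate 1 (edgeR adjusted p = 0.166 and 0.172). It passed with TWEAK, and in *ETS1* KD against untreated cells, under 1 alternative, the replicate block with a correction for GC content and length (edgeR adjusted p = 0.0214 and 0.0228). An antisense gene, *RELA-DT*, shares 103 bp (1.89%) of the *RELA* exons, and whether the counting used strand is not given in the sources used here.

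*REL*, which encodes c-Rel, was the least abundant (ENSG00000162924, hg38 chr2:60881491-60931612, plus strand), with 50 to 129 counts in a library. It was at 1.95, 3.29 and 1.56 CPM without TWEAK, 2.65, 2.76 and 3.58 CPM in TWEAK-treated control libraries, 2.63, 1.47 and 2.95 CPM with *NFKB2* KD and 1.82, 2.85 and 3.26 CPM with *ETS1* KD. The groups overlapped throughout. The log2 fold change with TWEAK was 0.40 with a 95% interval from -0.30 to 1.11 (edgeR adjusted p = 0.665). A long non-coding RNA gene, ENSG00000267520, covers 33.3% of the exonic length of *REL* on the same strand and was listed with 0 counts in all 12 libraries, so the *REL* values are uncertain where reads of the shared part were not assigned.

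Over all genes tested, 3.08% passed the threshold with TWEAK in control cells (520 of 16879), against 2 of the 5 subunit genes, *NFKB2* and *RELB*, both higher. With *NFKB2* KD 0.0296% passed (5 of 16879 at the adjusted threshold, and 660 at an unadjusted p under 0.05), and 1 of the 5 was called, *NFKB2* itself. With *ETS1* KD 1.39% passed and 0 of the 5 did in edgeR, DESeq2 or any other alternative. In edgeR 1 of the 5, *RELB*, had an unadjusted p under 0.05, as did 2022 of the 16879 genes tested. The values for *ETS1* KD against TWEAK-treated control cells were a log2 fold change of -0.28 for *NFKB2* (95% interval -0.65 to 0.09) and of -0.42 for *RELB* (-0.74 to -0.10, unadjusted p = 0.0151, edgeR adjusted p = 0.247). Those of the other members lay between -0.18 and 0.08. The *RELB* libraries of the 2 groups did not overlap, while those of *NFKB2* did.

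Set directly against each other, the 2 KDs gave a call for *NFKB2* alone among the 5, where 1.94% of all genes tested were called. *NFKB2* was 2.62-fold lower in the *NFKB2* KD than in the *ETS1* KD libraries (log2 fold change -1.39 ± 0.17 (SE), edgeR adjusted p = 0.00233). For *RELB* the difference was -0.27 with a 95% interval from -0.59 to 0.05 (edgeR adjusted p = 0.417), so no difference between the KDs was shown, and a value below -0.59 lies outside the interval.

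Against untreated control cells, TWEAK-treated *NFKB2* KD cells had *NFKB2* and *RELB* at similar ratios. The log2 fold change was 0.68 for *NFKB2* (95% interval 0.30 to 1.05, edgeR adjusted p = 0.134) and 0.67 for *RELB* (0.34 to 0.99, edgeR adjusted p = 0.0829). None of the 5 was called in edgeR, where 0.604% of all genes tested were. Both of these had an unadjusted p under 0.05 in edgeR, as did 1445 of the 16879 genes tested. Both passed in DESeq2 (adjusted p = 0.0196 for *NFKB2* and 0.00583 for *RELB*). TWEAK-treated *ETS1* KD cells against untreated control cells gave 3 calls of 5, where 13.8% of all genes tested were called. *NFKB2* was 4.20-fold higher (edgeR adjusted p = 2.9e-05), *RELB* 1.92-fold higher (edgeR adjusted p = 0.00163) and *NFKB1* 1.42-fold higher (edgeR adjusted p = 0.0221). The call of *NFKB1* was lost without the filter on low counts (edgeR adjusted p = 0.0501) and without any single one of untreated replicates 1 and 2 or of the 3 *ETS1* KD libraries, with adjusted p up to 0.104 in edgeR. These comparisons share the untreated or the TWEAK-treated control libraries, so they are not independent of each other.

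**Figure D2:**
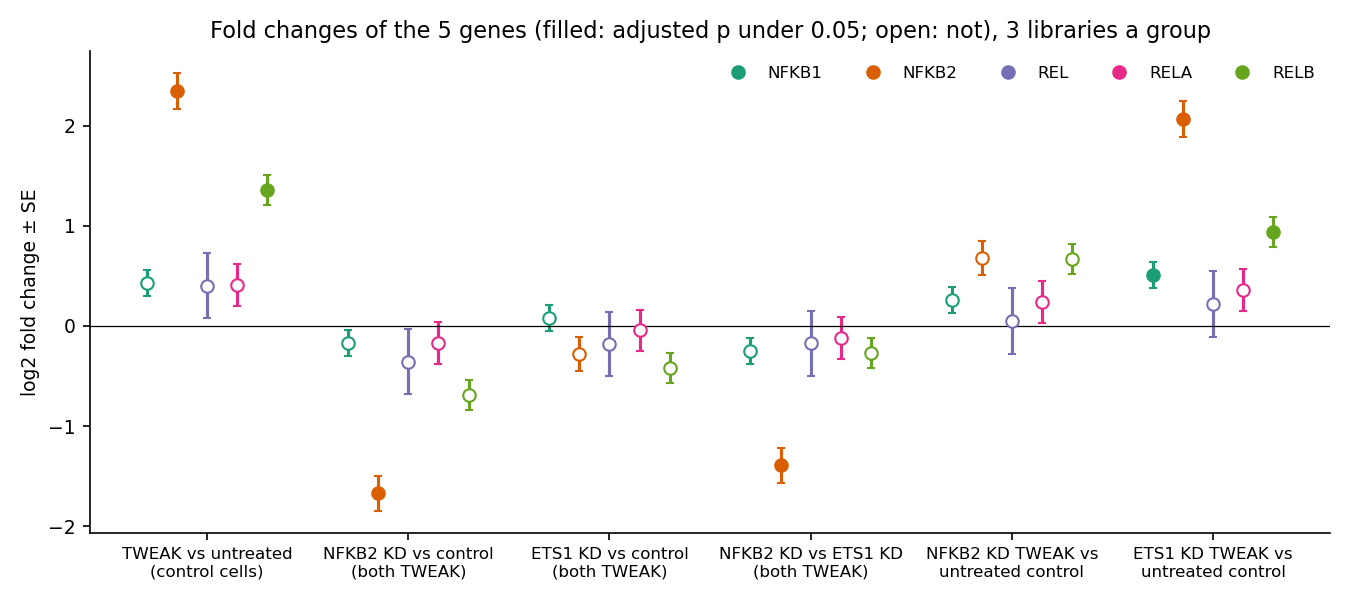
Log2 fold change ± SE of each gene in the 6 comparisons of RNA-seq groups (3 libraries each), from the edgeR fit. Filled points passed an adjusted p of 0.05, which *NFKB2* did in 4 comparisons, *RELB* in 2 and *NFKB1* in 1.

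Levels can be compared between genes only per length, for which counts were scaled by library and by the length of all annotated exons of the gene (RPKM). In untreated cells *RELA* (13.1 ± 3.1 RPKM, SD, n = 3) and *NFKB2* (10.2 ± 1.6) were the most abundant and their libraries overlapped, followed by *RELB* (7.33 ± 1.06), *NFKB1* (2.28 ± 0.21) and *REL* (0.132 ± 0.053). After TWEAK *NFKB2* stood above all others at 51.9 ± 9.9 RPKM, and *RELB* (18.8 ± 2.3) and *RELA* (17.4 ± 4.2) overlapped. In *NFKB2* KD cells *NFKB2* was back within the range of *RELA*, at 16.3 ± 2.6 against 15.5 ± 2.2 RPKM, with *RELB* at 11.6 ± 1.6. In *ETS1* KD cells *NFKB2* was at 42.8 ± 5.8, above *RELA* at 16.8 ± 2.7 and *RELB* at 14.1 ± 1.4 RPKM, which overlapped. *NFKB1* (at most 3.57 RPKM) and *REL* (at most 0.209 RPKM) were the lowest in every group, in that order. By the median over the 12 libraries the order was *NFKB2*, *RELA*, *RELB*, *NFKB1* and *REL*, and it was the same with the length of the MANE Select transcript, with other size factors and without any single library. Within groups the MANE length changed some relations. In untreated cells *NFKB1* (mean 8.82) and *RELB* (9.73) then overlapped, and *RELA* (28.4) and *NFKB2* (18.9) did not. The mean of *RELA* exceeded that of *NFKB2* with *NFKB2* KD (33.5 against 30.2) and that of *RELB* after TWEAK (37.6 against 24.9). With *ETS1* KD *RELA* (36.5) and *RELB* (18.7) no longer overlapped.

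The genes whose log2 CPM followed each subunit most closely over the 12 libraries were named by Pearson's r, as a description, since the libraries fall into 4 groups and the highest values over all other tested genes were taken. For *NFKB2* they were *TRAF1*, an adaptor of TNF receptors (r = 0.97), *NR5A2* (0.97) and *SLC8A1-AS1* (0.96). For *RELB* they were *NFKBIA*, the gene of the inhibitor IκBα (0.98), *CCND1* (0.96) and *CCL3* (0.96). For *NFKB1* they were *ROBO1*, *KLF5* and *CDH13* (0.96 to 0.97), for *RELA* *ZMIZ2*, *SLC25A22* and *ZNF335* (0.98 to 0.99), and for *REL* *SLC10A7*, *EMSY* and *DICER1* (0.93 to 0.97). By Spearman's rho, *TRAF1*, *NFKBIA*, *ROBO1*, *ZMIZ2* and *SLC10A7* were again among the 3 highest of their gene.

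Other genes of the pathway were listed by role, 34 in all, of which 32 were tested. With TWEAK 12 of the 32 rose in control cells and none fell, where 3.08% of all genes tested were called. The median log2 fold change was 0.25 over the list and 0.02 over all genes tested. All 4 genes of the NIK-degrading complex rose, among them *BIRC3* (3.34 to 174 CPM, log2 fold change 5.71), *BIRC2* (1.34) and *TRAF3* (0.95). Of the 4 genes of NIK and the IKK complex, *MAP3K14*, which encodes NIK, rose (1.57) and the IKK genes were not called. Of 9 genes of inhibitors and regulators 5 rose, led by *NFKBIE* (2.22), *NFKBIA* (1.33) and *NFKBIZ* (0.92), which encode proteins of the IκB family. Of the 5 target genes tested, *CXCL8* (1.68) and *IL6* (1.12) rose, both secreted inflammatory proteins. None of the 4 receptor genes tested, the 5 genes of p100 processing or the ligand gene *TNFSF12* itself was called. In edgeR every call named here had an adjusted p between 2.92e-05 and 0.0406.

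In *NFKB2* KD cells none of the 32 passed against TWEAK-treated control cells in edgeR, where 0.0296% of all genes tested did. Of the 32, 10 had an unadjusted p under 0.05 in edgeR, as did 660 of the 16879 genes tested. In DESeq2 3 passed (*BIRC3*, *IL6* and *NFKBIE*). The median log2 fold change was -0.09 over the list and -0.02 over all genes tested. *BIRC3* was at 49.4 CPM on average in *NFKB2* KD against 174 CPM in TWEAK-treated control libraries (log2 fold change -1.81, edgeR adjusted p = 0.194), and *NFKBIE* at 19.7 against 35.5 CPM (-0.85, edgeR adjusted p = 0.194). In *ETS1* KD cells 2 of the 32 fell and none rose in edgeR, where 1.39% of all genes tested were called. The 2 were *IL6* (-2.18, edgeR adjusted p = 0.00019) and *NFKBIZ* (-1.42, edgeR adjusted p = 0.0054). Of the 32, 8 had an unadjusted p under 0.05 in edgeR, as did 2022 of the 16879 genes tested, and 3 passed in DESeq2 (*CD40*, *IL6* and *NFKBIZ*). Between the KDs, where 1.94% of all genes tested were called, *BIRC3* was lower in *NFKB2* KD than in *ETS1* KD cells (-1.86, edgeR adjusted p = 0.0154). So was *TRAF2*, and *IL6* and *CD40* were higher. Of the 32, 13 had an unadjusted p under 0.05 in edgeR, as did 2616 of the 16879 genes tested, and 9 passed in DESeq2. Against untreated cells, 6 of the 32 were higher in TWEAK-treated *NFKB2* KD cells, where 0.604% of all genes tested were called. In TWEAK-treated *ETS1* KD cells 11 were higher and 4 lower, where 13.8% of all genes tested were called.

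Peaks of p52 showed where the product of *NFKB2* was bound at the 5 genes. A gene was counted as having a site when peaks of both replicates shared at least 1 bp and lay in the gene or within 15 kb of one of its starts. Without TWEAK none of the 5 genes had a p52 site, where 0.0712% of the genes tested did (12 of 16860), and no p52 peak was listed at any of them in either untreated library. After TWEAK 4 of the 5 had a p52 site, where 13.6% of the genes tested did, namely *NFKB2*, *REL*, *RELB* and *RELA*. In *ETS1* KD cells the same 4 genes had a site with guide 1, where 6.10% of the genes tested did, and with guide 2, where 13.8% did. With 2 libraries a condition an exact permutation test cannot go below p = 0.333, so no test was made, and the lists hold no read counts, so that the depth behind a peak is unknown. The p52 lists were of unequal length, with 714 and 452 peaks without TWEAK, 3579 and 11761 with TWEAK, 1387 and 3897 with guide 1 and 4252 and 3938 with guide 2.

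At *NFKB2* the p52 peak was among the strongest of each list. Its fold enrichment, as given by the peak caller, was 46.0 and 93.9 in the 2 TWEAK-treated control libraries, and it ranked 14 of 3579 and 4 of 11761 by q-value. In *ETS1* KD libraries it was 51.1 and 141 with guide 1 and 125 and 115 with guide 2, at ranks between 7 and 15. The summit lay at chr10:102394500 in both TWEAK-treated control libraries, 3 bp upstream of an annotated start site and 1205 bp upstream of the start of the MANE Select transcript, in the first exon of a longer transcript. A second, weaker peak lay at the MANE start site, with a summit 17 bp upstream of it and a fold enrichment of 6.70, in TWEAK-treated control replicate 2 and not in replicate 1. It was also listed in 3 of the 4 *ETS1* KD libraries (6.32 to 6.51). A further peak of TWEAK-treated control replicate 2, inside the neighbouring gene *PSD* and 17800 bp beyond the MANE start, had a fold enrichment of 5.32.

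At *REL* the p52 summit lay at the start of the gene, 44 and 41 bp before the MANE start and inside the first exon of another transcript. In TWEAK-treated control replicates 2 and 1 its fold enrichment was 72.9 and 32.5, at ranks of 76 and 102. The 4 *ETS1* KD libraries had it at 22.5 to 50.2 and ranks of 92 to 119. At *RELB* the summit was 125 bp upstream of the MANE start in both TWEAK-treated control libraries, with a fold enrichment of 26.3 and 50.5 and ranks of 128 and 134, and of 18.8 to 76.4 in *ETS1* KD libraries. *REL* thus had a p52 peak stronger than that of *RELB* in both TWEAK-treated control libraries, though not in those of guide 2 (44.3 and 42.9 against 76.4 and 54.2), while its transcript was not called.

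At *RELA* the site shared by the replicates was not at the start of the gene but 671 bp beyond its 3′ end in TWEAK-treated control replicate 2 and 694 bp in replicate 1. It was weaker, with a fold enrichment of 4.81 and 17.5 in replicates 1 and 2 and ranks of 3155 of 3579 and 1434 of 11761. All 4 *ETS1* KD libraries had a peak there, at 5.82 to 18.6. A peak upstream of *RELA*, within *RELA-DT*, was listed in TWEAK-treated control replicate 2 (8.42) and in 2 of the 4 *ETS1* KD libraries (3.45 and 8.33). At *NFKB1* only TWEAK-treated control replicate 2, the library with the longest list, had p52 peaks, and none of the other 7 had any. The nearest to the start lay 71 bp upstream of the MANE start with a fold enrichment of 4.58, at rank 10270 of 11761.

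**Figure D3:**
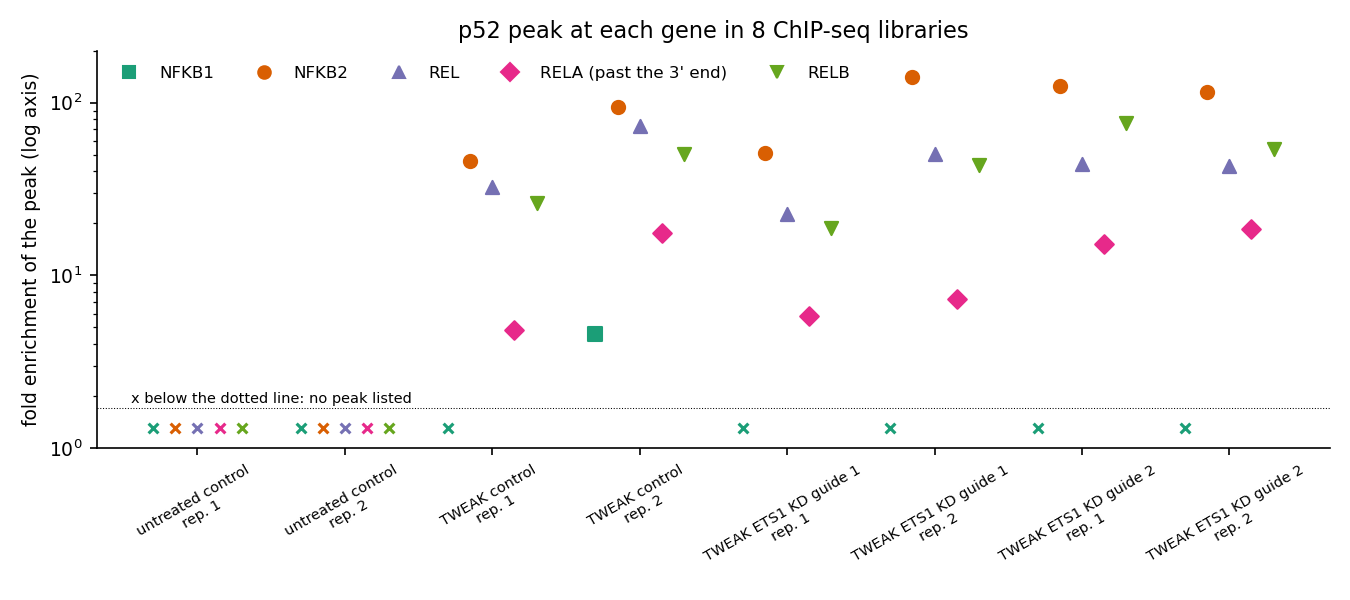
Fold enrichment (log axis) of the p52 peak with its summit within 1000 bp of an annotated start site, or for *RELA* beyond the 3′ end, in each of the 8 p52 libraries; crosses mark libraries with no such peak. *NFKB2* is highest in all 6 TWEAK-treated libraries (46.0 to 141), no gene has a peak in the untreated libraries, and *NFKB1* has one in TWEAK-treated control replicate 2 alone.

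The stretches under these summits are shown because they hold the matches to the NF-κB consensus, which are in capitals. They were taken from the RefSeq promoter windows of GRCh38.p14 (from 250 bp before to 50 bp after a start), which hold 4 of the 5 genes, and for the *RELA* site from the hg38 genome; *RELB* is named only. At most 30 bases of annotated UTR are shown in a stretch, so the stretches of *REL* and of the main *NFKB2* peak are short. All read 5′ to 3′ on the strand of the gene, plus for *NFKB2*, *REL* and *NFKB1* and minus for *RELA*.
NFKB2, main peak, chr10:102394463-102394489: aacgtcatGGGAATTCCCCcctccggg
NFKB2, main peak, chr10:102394492-102394517: gccgagaaGGGGCTTTCCcggccctg
NFKB2, MANE start, chr10:102395628-102395712: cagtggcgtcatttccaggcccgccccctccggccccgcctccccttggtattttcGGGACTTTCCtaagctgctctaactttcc
REL, chr2:60881519-60881545: tcagccgcGGGAAATTCCCctcccgcc
NFKB1, chr4:102501228-102501348: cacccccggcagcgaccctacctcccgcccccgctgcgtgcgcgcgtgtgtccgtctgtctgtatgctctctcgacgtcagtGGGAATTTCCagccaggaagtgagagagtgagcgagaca
RELA, beyond the 3′ end, chr11:65652868-65652988: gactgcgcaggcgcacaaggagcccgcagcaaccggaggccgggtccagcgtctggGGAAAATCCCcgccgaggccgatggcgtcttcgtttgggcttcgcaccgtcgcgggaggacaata

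The main *NFKB2* peak held matches at 2 separate places, of which the second began at the summit base itself and the first, a run that matched at 2 overlapping positions, ended 19 bp before it. The *REL* run also matched at 2 overlapping positions and lay across the summit. The match at the *NFKB2* MANE start and that beyond *RELA* lay across their summits as well, while that at *NFKB1* began 22 bp after its summit. In 201 bp around the summit of TWEAK-treated control replicate 2, the *RELB* peak matched at 2 positions and the peak upstream of *RELA* had no match. Over all 2941 p52 sites of TWEAK-treated cells, 71.9% held a match on either strand in the same window, 89.0% of the 200 strongest did, and of 35097 RefSeq promoter windows cut to the same length 4.22% did. A match in these windows is a description of the letters and does not show binding.

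Other motifs were searched in the same windows on both strands. The ETS core AGGAAG was absent around the *NFKB2*, *REL* and *RELB* summits and the *RELA* site, and it matched at 2 places around the *NFKB1* start peak. It also matched at 1 place around a weak peak in an intron of *NFKB1* and at 1 around a weak peak downstream of that gene. Of all p52 sites 24.4% held it, and of promoter windows 23.9%. The longer ETS sequence CTTCCGG, whose reverse strand shares GGAAG with that core, matched around none of the members' p52 summits (2.07% of all p52 sites and 7.74% of promoter windows). The AP-1 sequence TGANTCA matched around none of the peaks at the starts and around 2 weaker ones far from them, of *NFKB1* and *NFKB2* (24.0% of all p52 sites and 5.54% of promoter windows).

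ETS1 peaks were also looked for at these genes. None of the 5 had an ETS1 site in both replicates without TWEAK, where 8.55% of the genes tested did, or with TWEAK, where 11.6% did, shares at which 0 of 5 is close to the background. The only ETS1 peak was at *NFKB2* in TWEAK-treated control replicate 1, in exon 14 of the MANE Select transcript and 3922 bp from its start, with a fold enrichment of 2.71 and rank 3538 of 3570. With either replicate as the rule the count with TWEAK was 1 of 5.

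RNA Pol II peaks were present at all 5 genes. Each had a site in both replicates in untreated cells, where 59.1% of the genes tested did, in TWEAK-treated control cells, where 69.3% did, and in TWEAK-treated *ETS1* KD cells, where 61.4% did. In TWEAK-treated *NFKB2* KD cells only *RELA* and *RELB* had one (2 of 5, where 53.8% of the genes tested did). Replicate 2 of that condition had the shortest list, with 11175 peaks against 24710 to 44672 in the other 7 libraries, and all 5 genes had a peak in replicate 1. The count was thus 5 without replicate 2 and 3 without replicate 1, and the part of that list's length in it was not tested.

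The RNA Pol II peak at the *NFKB2* start had its summit between 114 and 172 bp downstream of the first annotated start in the 7 libraries that listed it. Its fold enrichment was 38.0 and 10.8 in TWEAK-treated control libraries and 8.64 and 6.74 without TWEAK. It was 9.75 and 6.76 in *ETS1* KD libraries and 9.89 in *NFKB2* KD replicate 1, and *NFKB2* KD replicate 2 had none. Both TWEAK-treated control values were higher than all others, but replicate 1 was far from replicate 2. At *RELB* the TWEAK-treated control libraries were also the highest, at 25.1 and 14.6 against 10.4 and 10.9 without TWEAK, 10.2 and 8.84 with *ETS1* KD and 7.74 and 7.34 with *NFKB2* KD. At *NFKB1* the same value was 12.6 and 6.90 with TWEAK against 6.47 and 6.80 without, and at *REL* 14.1 and 5.54 against 4.80 and 8.97. At *RELA* it was 9.73 and 8.76 with TWEAK against 5.01 and 12.8 without, so that an untreated library was the highest.

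Peaks of RNA Pol II also covered more of the *NFKB2* gene body, which is 8415 bp long, in TWEAK-treated control cells. They covered 82.2% and 29.2% of it there, 21.4% and 11.4% without TWEAK, 18.8% and 19.1% with *ETS1* KD and 10.5% and 0% with *NFKB2* KD. The TWEAK-treated control libraries did not overlap the others. The lists themselves covered 27.4 and 16.3 Mb with TWEAK, 13.8 and 23.2 Mb without, 15.2 and 17.4 Mb with *ETS1* KD and 19.0 and 5.66 Mb with *NFKB2* KD, with a mean peak width of 506 to 626 bp. With the strongest 11175 peaks of each library, a setting chosen after seeing the data, the cover was 48.5% and 24.1% with TWEAK, 21.4% and 4.34% without, 14.7% and 11.8% with *ETS1* KD and 9.91% and 0% with *NFKB2* KD, so the order of the TWEAK-treated control libraries above the others was kept. Beyond the 3′ end, peaks were also listed in *PSD*, a gene on the other strand that lies 93 bp further and had 1 to 9 counts in an RNA-seq library. They were found in 7 of the 8 libraries, all but untreated replicate 2.

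At *RELB*, whose gene body is 36732 bp long, the cover was 14.2% and 1.76% with TWEAK against 4.35% and 1.68% without, so that the conditions overlapped. It was 3.26% and 1.59% with *ETS1* KD and 1.63% and 1.54% with *NFKB2* KD. With equal numbers of peaks replicate 1 with TWEAK was at 6.69% and replicate 2 at 1.76%. At *RELA* the cover was 52.6% and 7.99% with TWEAK and 11.3% and 18.0% without. The long genes *NFKB1* and *REL* were covered to less than 2% in every library.

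**Figure D4:**
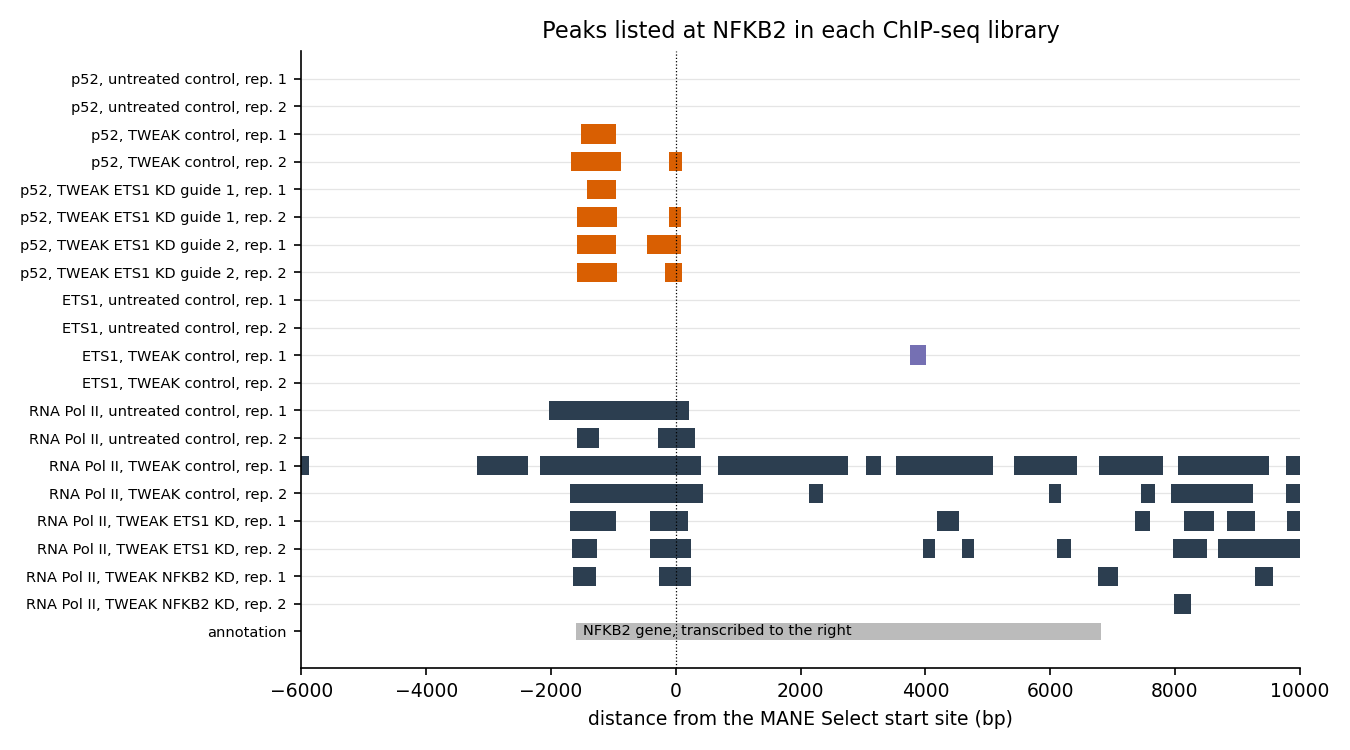
Peaks listed around *NFKB2*, 1 row per ChIP-seq library, with the extent of the gene in grey at the bottom (horizontal axis in bp from the MANE Select start). The p52 rows are empty without TWEAK and have a peak 1205 bp upstream of the MANE start with TWEAK, and the RNA Pol II rows of TWEAK-treated control cells are the most filled.

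**Figure D5:**
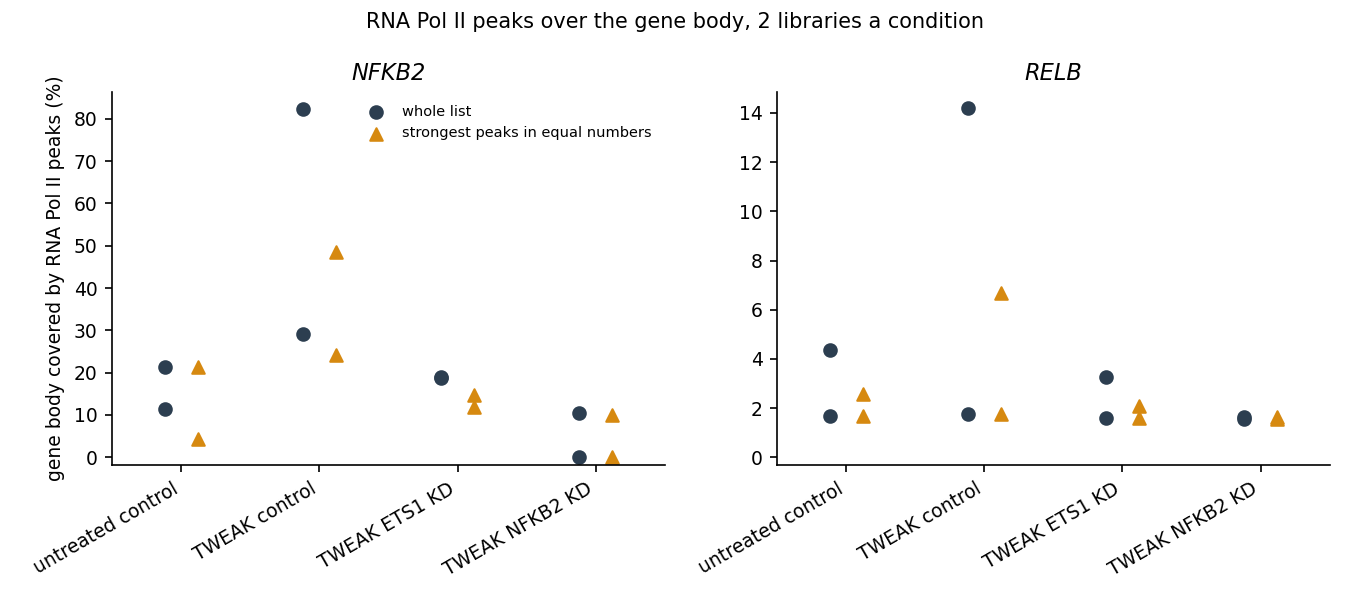
Share of the *NFKB2* and *RELB* gene bodies covered by RNA Pol II peaks (vertical axes in percent, 2 libraries a condition), from the whole list (circles) and from the strongest 11175 peaks (triangles). For *NFKB2* both TWEAK-treated control libraries lie above the other libraries in either way, and for *RELB* only replicate 1 does.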

How the data were processed

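For RNA-seq, reads had been trimmed (Trimmomatic), aligned to hg38 (STAR) and assigned to genes (featureCounts) by the authors, who deposited raw counts. The strand setting and versions are not given in the sources used here. The labels name a DNA library kit and the methods a directional RNA kit. 0 sample columns were left unused. Genes kept by filterByExpr (16879 of 62696 rows) were tested in R 4.3.3 with edgeR 4.0.16, using TMM scaling, a quasi-likelihood test over 4 groups without covariate and Benjamini-Hochberg adjustment, at an adjusted p under 0.05. DESeq2 1.42.0 was an alternative. On simulated counts for the TWEAK comparison, with 200 of 16879 genes changed, 67.0% were recovered, and 8.22% of calls were false.

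Lengths came from GENCODE 44. For ChIP-seq, the authors mapped reads with Bowtie2 and called peaks with MACS2 in each library on hg38, and the deposited fold enrichment ratios, scores and −log10 p- and q-values are those of the peak caller. Overlaps, motifs (100 bp to each side of a summit) and figures used Python 3.11.15, pysam 0.24.0 and matplotlib 3.10.9, and the overlap code was tested on simulated peaks. 3 input samples were not analysed here.

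The 5 members, the gene lists and the tests were chosen with earlier results of these data known. Named genes were the 5 members, both KD targets, up to 3 called pathway genes with the largest change per role, the 3 most alike genes per member, and genes at the members' peaks or exons. *TNFSF12*, the sole ligand, *TRAF2* and *CD40* are named beyond this. Alternatives were other size factors, DESeq2, no filter, only the groups compared, a replicate block, a loess correction over GC content and length, stricter or equal peak lists, and leaving out each library.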

Additional observations from a re-analysis of the deposited data

Results flagged for a closer look

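*NFKB2* differed between the 2 KDs by a direct test. The log2 fold change of *NFKB2* KD minus *ETS1* KD, both with TWEAK, was -1.39 (edgeR adjusted p = 0.00233), with 75.6 to 105 CPM in the *NFKB2* KD and 209 to 273 CPM in the *ETS1* KD libraries. *NFKB2* is the target of 1 of these KDs. The check of single values by their gap to the nearest other needs 4 libraries in a group and was not made.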

How the results depend on the processing

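Of 570 recomputed log2 fold changes, 535 kept their direction and side of the threshold, 18 newly passed it, 6 no longer did and 11 changed sign, all of the last in values not called. The calls of *NFKB2* with TWEAK, with *NFKB2* KD and between the KDs, and of *RELB* with TWEAK, held in all 19 alternatives each. With *NFKB2* KD, 2 members were called in DESeq2 and without the filter, and 2 under the replicate block with GC content and length correction (*RELB*, edgeR adjusted p = 0.0391). For *NFKB2* KD with TWEAK against untreated cells, 2 were called in DESeq2, without the filter, under the replicate block and under the block with that correction, and 1 under the correction alone. With the block and correction together, 4 were called with TWEAK (*NFKB1* and *RELA* as well), 2 between the KDs (*NFKB1* as well) and 4 for *ETS1* KD against untreated cells (*RELA* as well). Replicate numbers matched the samples only in part. Of 18 pairs with the same number 9 correlated over 0.1, and 20 of 36 library comparisons were best with the own number. The median correlation was 0.16 for pairs with the same number, which ran from -0.30 to 0.49, and -0.09 for other pairs. Whether the cultures were paired was not tested. Under the replicate block *NFKB1* also passed with TWEAK (edgeR adjusted p = 0.0243). Leaving out a library gave -0.15 to 0.43 for *REL* in *NFKB2* KD against untreated cells, -0.36 to 0.078 for *REL* between the KDs and -0.36 to 0.012 for *REL* with *ETS1* KD. With *ETS1* KD it gave -0.0021 to 0.20 for *NFKB1* and -0.23 to 0.090 for *RELA*. Over all genes, the 520 calls with TWEAK ran from 171 to 1511, the 5 with *NFKB2* KD from 2 to 87, the 234 with *ETS1* KD from 102 to 719, the 327 between the KDs from 76 to 1352, and against untreated cells the 102 of *NFKB2* KD from 18 to 385 and the 2334 of *ETS1* KD from 1179 to 4416. In peak lists, with either replicate 1 member had an ETS1 site with TWEAK (0 to 1 when a library was left out) and 5 had an RNA Pol II site with *NFKB2* KD (3 to 5). Over all alternatives, 3 to 5 members had a p52 site in TWEAK-treated control cells and 3 to 4 with each *ETS1* KD guide. For RNA Pol II sites the count was 4 to 5 in untreated and in TWEAK-treated control cells, and 2 to 5 with *NFKB2* KD. The cause of these changes was not tested. The depth of the peak lists is unknown, and *REL* had few counts.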
